A study of Mus musculus with 6 samples.

Results

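Complex I, the NADH dehydrogenase that opens the mitochondrial respiratory chain, was followed here through its nuclear genes and the factors that assemble it. The members were the 46 genes of the array table whose symbol starts with Nduf, out of 19494 genes with a symbol. Of these, 38 carry a subunit name and 8 are assembly factors (Ndufaf). None of the 46 had more than 1 row in the table, so no choice between rows was needed. The cells were regulatory T cells (Tregs), CD4 T cells that restrain immune responses, and the 6 samples were each read on a 1-colour Affymetrix array after amplification with a kit for little RNA. All 6 came from mice of 1 genotype, Foxp3-RFP x GPR15-GFP, in which red fluorescence reports Foxp3 and green fluorescence reports the colon-homing receptor GPR15. All had colorectal cancer induced by the carcinogen azoxymethane together with dextran sulfate sodium, an agent that injures the colon lining, and no sample from a tumour-free or untreated colon was compared. Red cells of the tumorous colonic lamina propria were sorted into a GPR15-GFP+ fraction (3 samples) and a GPR15-GFP- fraction (3 samples), and the titles number the samples of each fraction 1, 5 and 6. The labels give no age or sex and do not say whether a number stands for 1 animal or a pool, and the p-values below therefore reflect the spread among these 6 samples alone, which may be technical.

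Complex I takes electrons from NADH, passes them along iron-sulfur clusters to ubiquinone, and uses the energy to pump protons out of the mitochondrial matrix. Its N module binds NADH, its Q module reduces ubiquinone, and its membrane arm, built around subunits encoded in mitochondrial DNA, moves the protons. Assembly factors join these parts and are not kept in the finished enzyme. Tregs are known to draw on mitochondrial respiration. The 7 mitochondrially encoded subunits and the distal arm gene Ndufb1 were not analysed here.

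The deposited values are log2 probe set signals after robust multi-array averaging, in which background is removed, arrays are brought to like distributions and probes are summarised. Array medians ran from 6.49 to 6.64. Spread was smallest on both arrays numbered 1 (SD 1.63, against 1.74 to 1.87). Gpr15 itself read lower in the samples labelled GPR15+ (-0.65 ± 0.22 SE, limma unadjusted p = 0.0172, limma adjusted p = 0.773), against the labels. It lay lower at numbers 1, 5 and 6 (-0.28, -1.26 and -0.43), and the fractions did not overlap. Of all genes, 9.17% did not overlap in that direction. Every direction below is therefore that of samples labelled GPR15+ minus samples labelled GPR15-. All 8 measured T cell markers exceeded the all-gene median level. So did 8 of 9 Treg markers, the exception being Il2ra, which encodes the interleukin-2 receptor chain CD25 and read 4.64 to 5.42. Epithelial markers (5 of 14 above that median level), macrophage markers (2 of 9), B and plasma cell markers (0 of 6) and fibroblast and endothelial markers (3 of 8) were dimmer. The mean log2 value over the epithelial list was 6.37 to 6.52 in samples labelled GPR15- and 6.09 to 6.33 in those labelled GPR15+. For the macrophage list these ranges were 6.11 to 6.35 and 5.77 to 6.30, for the B and plasma cell list 5.96 to 6.25 and 5.54 to 5.84, and for the fibroblast and endothelial list 6.28 to 6.41 and 6.17 to 6.42. The part of these cells in the differences given below was not tested. Bulk samples also cannot tell fewer cells of a type from less RNA per cell.

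The comparison asked whether complex I genes were expressed at another level in tumour-associated Tregs labelled GPR15+. No member passed. Of the 46 genes, 0 were called by limma after Benjamini-Hochberg adjustment over all 19494 genes (0% of all genes were called), and the smallest adjusted p among them was 0.773. At an unadjusted p under 0.05 the count was again 0 of 46, where 6.23% of all genes lay under that mark (2.79% higher and 3.44% lower). With the title number as a replicate block it was 1 of 46 (Ndufa6), against 12.4% of all genes. Among the 38 subunits it was 1 with each array centred on its median (6.02% of all genes), 0 after quantile normalization (5.45%), 0 with the trend of difference against level removed (5.84%), 1 with trend removal and block together (10.7%), 0 without the 40% dimmest genes (6.1%) and 0 with the rows of a gene averaged (6.22%). Leaving out a GPR15- array gave 0 for replicate 1 (3.93%), 0 for replicate 5 (4.23%) and 1 for replicate 6 (3.93%), and leaving out GPR15+ replicate 5 or 6 gave 0 (3.43% each). The median log2 difference of the 38 subunit genes was 0.06, with 22 above 0 and 16 below. That of the 8 assembly factors was 0.14, with 5 above 0 and 3 below, while the median over all genes was -0.06. Member differences ranged from -0.27 to 0.41. Standard errors of the subunits had a median of 0.32 and ran from 0.16 to 0.71. All standard errors and 95% intervals given here come from the fit without a block. The spread between title numbers is thus counted in them. For 30 of 46 members the 95% interval of the difference lay within 1 log2 unit of 0, that is, within a 2-fold change either way, and for the other 16 the interval reached past it in at least 1 direction. Leaving out GPR15- replicate 1 turned the subunit median to -0.06, leaving out GPR15+ replicate 5 to -0.07 and GPR15+ replicate 6 to -0.09, while it was 0.37 when GPR15+ replicate 1 was left out. It was -0.05 after quantile normalization and -0.01 with the trend removed. Centring each array on its median moved all genes by 0.07 and the subunit median to 0.13.

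Values of the 3 samples of a fraction are given below in the order of the numbers 1, 5 and 6. They are signals of different probe sets, so they do not rank genes by RNA amount. In the N module, the NADH-binding tip of the enzyme, the median difference over 10 genes was 0.09. Ndufa6, an accessory subunit where the N and Q modules meet, had the smallest p of all members. It read 8.23, 8.17 and 8.55 in samples labelled GPR15- and 8.57, 8.70 and 8.92 in those labelled GPR15+. All 3 samples labelled GPR15+ lay above all 3 labelled GPR15-, the closest pair being 8.57 and 8.55. The difference was 0.41 ± 0.18 (SE; 95% interval -0.01 to 0.84), or 1.33-fold, and did not pass (limma adjusted p = 0.773). Ndufa6 was the only member whose fractions did not overlap, where 4.12% of all genes did not overlap in that direction and 9.17% in the other.

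Ndufv3, an accessory subunit of the NADH-binding flavoprotein, read 8.53, 7.83 and 8.21 in samples labelled GPR15- and 8.79, 8.25 and 8.60 in those labelled GPR15+. It lay higher at every number, by 0.26, 0.42 and 0.39, although the fractions overlapped. Ndufa12, an accessory subunit at the join of the N and Q modules, read 9.07, 9.30 and 9.61 against 9.19, 9.61 and 9.77 and lay higher by 0.20 ± 0.22 (SE). Ndufa7 read 8.37, 8.33 and 8.61 against 8.33, 8.28 and 8.22 and was the only complex I subunit below 0 at all 3 numbers, with a difference of -0.16 ± 0.16 (SE). The fractions touched without separating.

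The core subunits, which carry the flavin and the iron-sulfur clusters and are conserved from bacteria, differed by a median of 0.07 over 6 measured genes. Ndufv1, which binds NADH and the flavin, read 7.04, 8.74 and 8.46 in samples labelled GPR15- and 6.63, 8.69 and 8.56 in those labelled GPR15+. Its arrays numbered 1 were low in both fractions, and the fraction difference was -0.12 ± 0.63 (SE). Ndufv2, its iron-sulfur partner, read 7.63, 8.53 and 8.72 against 6.98, 9.63 and 9.37. The difference was -0.65 at number 1 and 1.10 and 0.65 at numbers 5 and 6, so the mean of 0.37 ± 0.67 (SE) stood for none of the 3. Ndufs1, the largest core subunit and a carrier of several clusters, read 5.56, 5.76 and 5.42 against 5.81, 5.90 and 5.26. Its fractions overlapped fully.

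**Figure D1:**
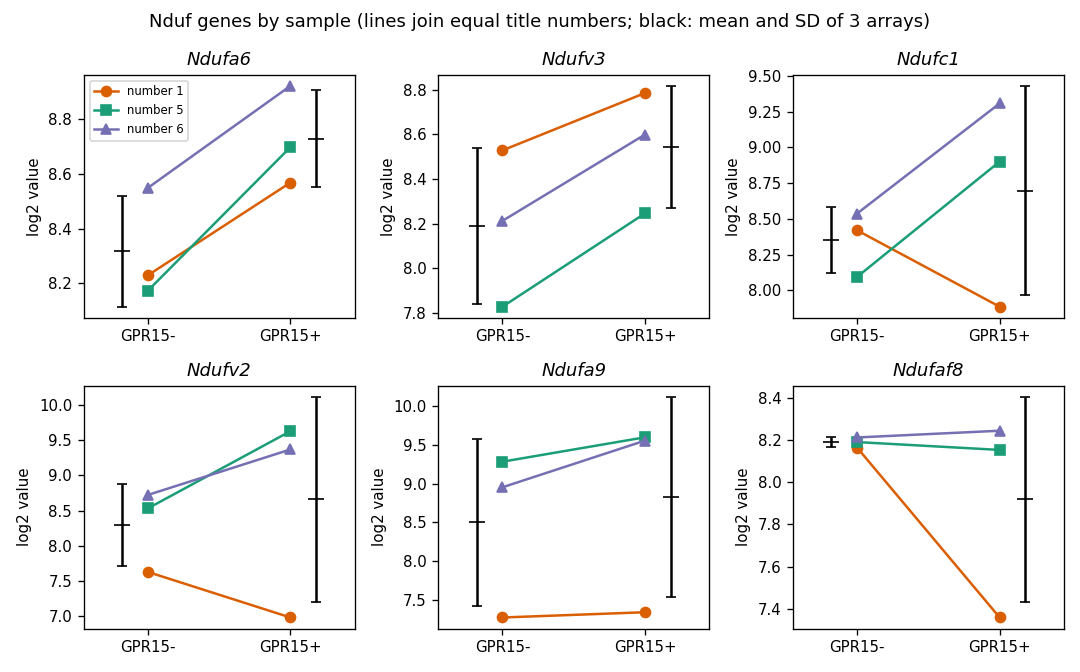
Log2 values of 6 members in every sample, with coloured lines joining samples of equal title number (1, 5 and 6) across the GPR15- and GPR15+ labels, and black bars for the mean and SD of 3 arrays; each panel has its own y axis, which does not start at 0. Ndufa6 and Ndufv3 lie higher in the GPR15+ label at each number, Ndufc1 and Ndufv2 part number 1 from 5 and 6, Ndufa9 is low in both samples numbered 1, and Ndufaf8 is low in GPR15+ number 1 alone.

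The Q module, where ubiquinone is reduced, had a median difference of 0.09 over 5 genes. Ndufs3, a core subunit of this module, read 10.65, 10.61 and 10.90 in samples labelled GPR15- and 10.31, 10.98 and 11.05 in those labelled GPR15+. Ndufs7, which holds the last iron-sulfur cluster before ubiquinone, read 6.34, 7.22 and 7.10 against 5.53, 7.21 and 7.44. In both genes the GPR15+ sample numbered 1 was the lowest of the 6. Ndufs8, which carries the neighbouring clusters, read 8.30, 8.86 and 8.79 against 8.36, 8.95 and 8.94, and lay within 0.15 of its partner at each number. The accessory subunit Ndufa9 read 7.28, 9.28 and 8.95 against 7.35, 9.60 and 9.55. Its spread followed the number and not the fraction, and its difference of 0.33 had an SE of 0.71, the largest among the members.

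Subunits of the membrane arm differed by a median of 0.06 over 9 genes of the proximal part, next to the matrix arm, and by 0.01 over 12 genes of the distal part. Ndufc1, a small proximal subunit, read 8.42, 8.09 and 8.54 in samples labelled GPR15- and 7.89, 8.90 and 9.31 in those labelled GPR15+. It lay lower by -0.53 at number 1 and higher by 0.81 and 0.77 at numbers 5 and 6. Ndufa8, another proximal subunit, read 9.44, 9.57 and 9.72 against 9.03, 9.64 and 9.70, so its low mean came from the GPR15+ sample numbered 1. In the distal arm, Ndufb8 read 8.59, 8.55 and 8.37 against 8.97, 8.58 and 8.74. The lowest GPR15+ sample lay 0.01 below the highest GPR15- sample, and the difference was 0.26 ± 0.17 (SE). Ndufab1, the mitochondrial acyl carrier protein, which also serves lipoic acid synthesis, read 7.66, 7.99 and 8.24 against 7.76, 8.46 and 8.61 and lay higher at every number. Ndufb11, an X-linked subunit, read 10.90, 11.14 and 11.17 against 10.08, 11.13 and 11.30. Only the GPR15+ sample numbered 1 stood apart. Ndufb4 and Ndufb4b are close copies that an array may not tell apart, and their rows differed by -0.08 and 0.12.

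A pair of Nduf names do not belong to complex I in the usual sense. Ndufa4, now counted as a subunit of cytochrome c oxidase, read 9.31, 10.05 and 9.99 in samples labelled GPR15- and 8.52, 10.08 and 10.12 in those labelled GPR15+. Ndufa4l2, a relative of it known to be induced by low oxygen, read 7.31, 6.21 and 6.50 against 6.90, 6.17 and 6.30. Its arrays numbered 1 were the brightest in both fractions, the reverse of Ndufa4, and it lay below 0 at all 3 numbers (-0.42, -0.04 and -0.21). Neither difference passed (limma adjusted p = 0.926 and 0.897).

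The subunit differences varied with the title number. At number 1 the median difference of the 38 subunits was -0.31, with 29 below 0. At numbers 5 and 6 it was 0.25 and 0.23, with 31 and 33 above 0. Over all genes the medians at the 3 numbers were -0.03, -0.08 and -0.06. Of the 38 subunits, 20 (52.6%) lay below 0 at number 1 and above 0 at both others, a pattern that 13.5% of all genes and 28.9% of the 4184 genes with a mean level of 8 or more showed. Another 8 (21.1%) lay above 0 at every number: Ndufa3, Ndufa6, Ndufa9, Ndufa12, Ndufab1, Ndufb8, Ndufs8 and Ndufv3. That share was 13.4% over all genes and 24.98% over genes at a level of 8 or more. Ndufa7 and Ndufa4l2 lay below 0 at every number (5.26%, against 23.6% of all genes and 12.0% of those at a level of 8 or more). Each number holds 1 pair, so the difference between numbers was not tested.

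The lowest differences of subunits at number 1 were those of Ndufa1 (-0.999), Ndufb9 (-0.89), Ndufb4 (-0.87), Ndufb11 (-0.82) and Ndufs7 (-0.81). At numbers 5 and 6, Ndufa1, which is needed to build the membrane arm, lay higher by 0.36 and 0.37. The highest of subunits at number 5 were Ndufv2 (1.10), Ndufb5 (0.93) and Ndufc1 (0.81), and at number 6 these read 0.65, 0.60 and 0.77, beside Ndufa9 at 0.60. Of the assembly factors, Ndufaf2 reached 0.83 at number 5 and Ndufaf7 0.81 at number 6. Across the 38 subunits the differences at numbers 5 and 6 correlated at r = 0.70, against 0.49 over all genes. Those at number 1 correlated at -0.08 and -0.15 with the others. These points are genes that share arrays and are not independent.

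**Figure D2:**
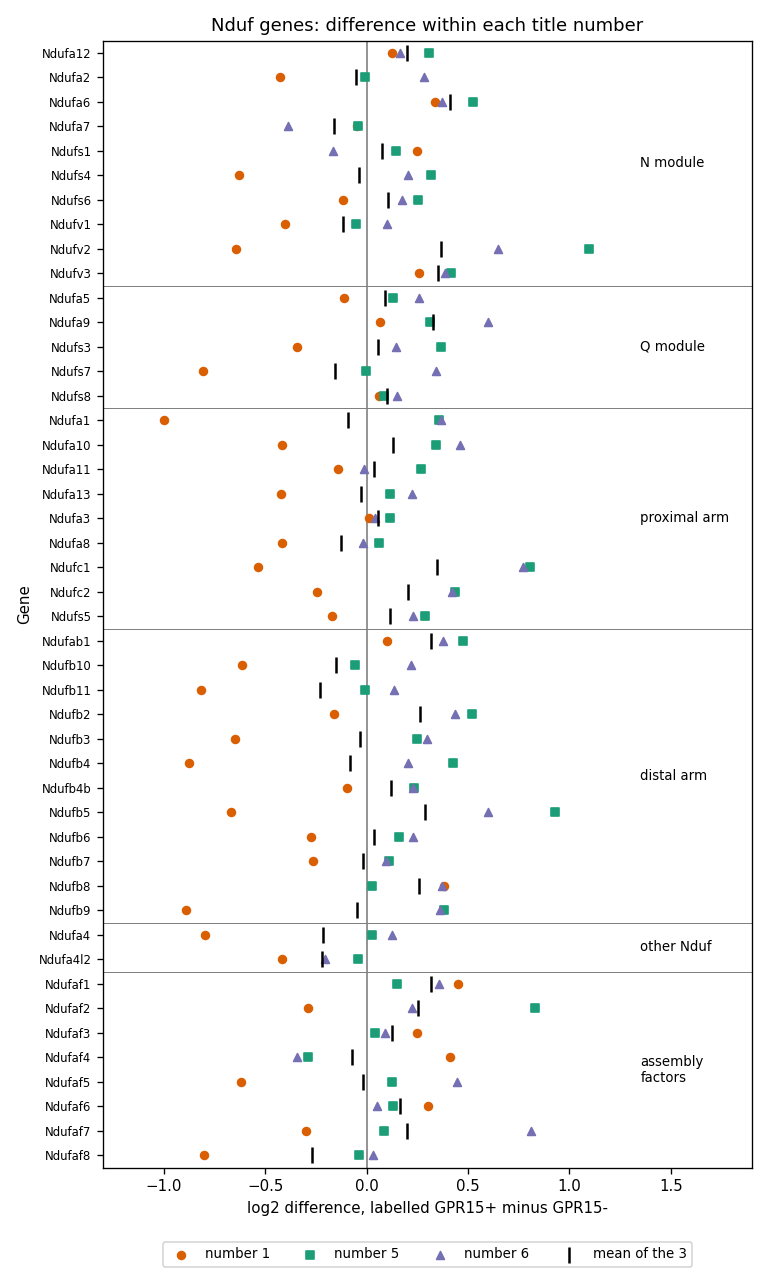
Log2 difference of each of the 46 Nduf genes, GPR15+ minus GPR15- label, at title numbers 1 (circle), 5 (square) and 6 (triangle), with the mean of the 3 as a bar, genes grouped by module. Number 1 lies left of 0 for 29 of 38 subunits, and numbers 5 and 6 lie right of 0 for 31 and 33.

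The arrays numbered 1 had the lowest subunit mean of either fraction. The GPR15+ sample numbered 1 was the lowest of the 6 arrays for 25 of 38 subunits (65.8%), while it was lowest for 18.8% of all genes and 37.7% of genes at a level of 8 or more. The mean over the subunits was 8.80, 9.10 and 9.22 in samples labelled GPR15- and 8.48, 9.36 and 9.47 in those labelled GPR15+. The GPR15+ samples thus held both the lowest mean and the 2 highest. The mean over all genes lay between 6.68 and 6.72 on every array. Without this array 10 of 38 subunits had an unadjusted limma p under 0.05 (26.3%), beside 22.3% of all genes. Without both arrays numbered 1 there were 6 (15.8%), beside 21% of all genes, and the subunit median was 0.22. In neither case did a member pass after adjustment over all genes. Without both arrays numbered 1 the smallest adjusted p was that of Ndufv2 at 0.104.

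**Figure D3:**
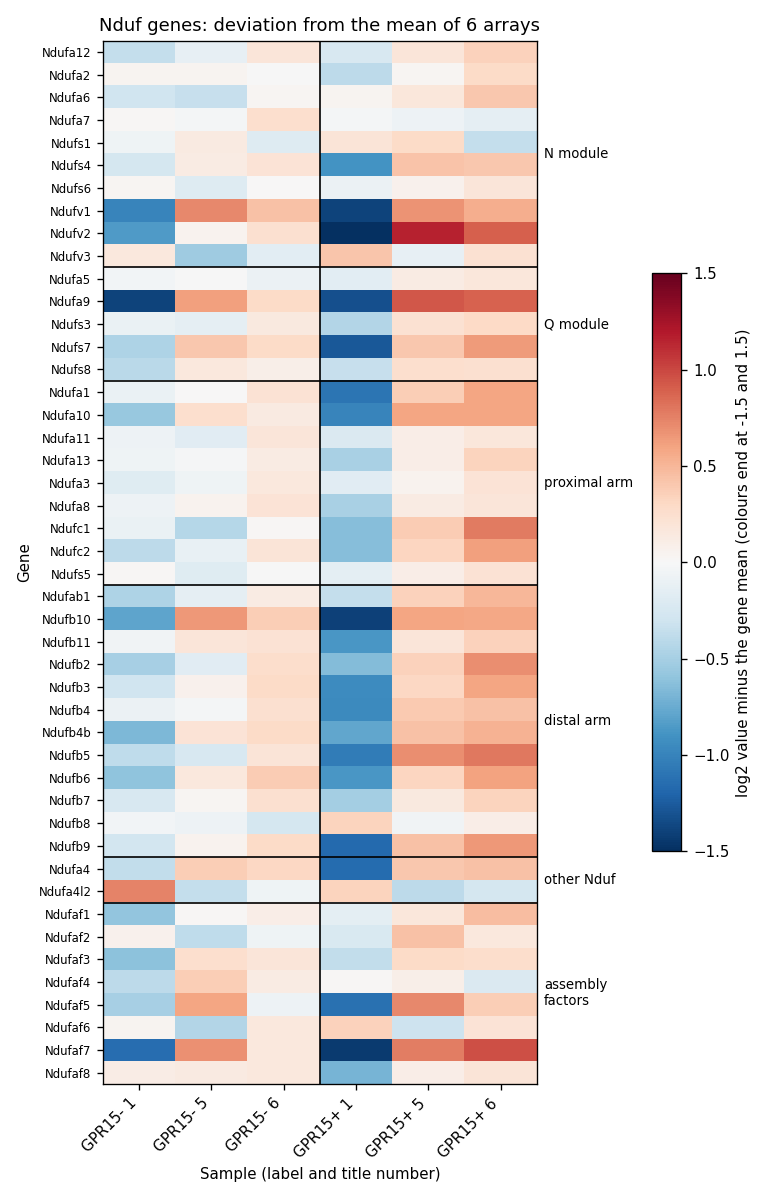
Deviation of each Nduf gene from its own mean over the 6 arrays, in log2 units (colour, ending at -1.5 and 1.5), with samples in columns by label and title number and genes in rows by module. The GPR15+ column numbered 1 is blue for most subunits, the GPR15- column numbered 1 is paler blue, and the GPR15+ columns 5 and 6 are red.

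The arrays numbered 1 also stood apart from the other arrays in both fractions. Deviations of the 38 subunits from their fraction means correlated at 0.81, 0.76 and 0.78 between samples of equal number, against 0.57, 0.38 and 0.32 over all genes. Numbers 5 and 6 correlated across fractions too, at 0.68 (GPR15- 6 with GPR15+ 5) and 0.49 (GPR15- 5 with GPR15+ 6) for the subunits. The 3 deviations of a gene within a fraction cancel out, so these correlations depend on each other and are not separate results. For 42 of 46 members the range of the 3 number means exceeded the fraction difference, as it did for 15111 of 19494 genes and for 3402 of the 4184 genes at a level of 8 or more. The number was then tested with limma's F test, the fraction kept as a term, a test added after the data had been seen. It called 4 of 46 members after adjustment over all genes, where 1.82% of all genes and 4.40% of genes at a level of 8 or more were called. They were Ndufa9, Ndufv1, Ndufb10 and the assembly factor Ndufaf7 (adjusted p = 0.0179, 0.0236, 0.0316 and 0.0304). Their means at number 1 were lower than at 5 and 6 by a log2 difference of -2.03, -1.78, -1.64 and -1.94, or 4.09-, 3.43-, 3.12- and 3.83-fold. At an unadjusted p under 0.05 the test counted 27 of 46 members (58.7%), beside 19.8% of all genes and 33.5% of genes at a level of 8 or more. Of the 38 subunits, 34 lay lower at number 1 than over 5 and 6, and Ndufv3, Ndufb8, Ndufs1 and Ndufa4l2 lay higher. Over all genes 40.5% lay lower, and over those at a level of 8 or more 70.3%.

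Most complex I probe sets were bright, with 36 of 38 subunits and 6 of 8 assembly factors above the all-gene median level, and level itself moved with the difference. Among the 1095 genes with a mean level from 9 to 10, the median differences at numbers 1, 5 and 6 were -0.05, 0.20 and 0.16. For the 10 subunits in that range they were -0.35, 0.27 and 0.19. Among the 2375 genes from 8 to 9 the medians were -0.01, 0.18 and 0.12, and for the 16 subunits there they were -0.12, 0.35 and 0.37. With the trend against level removed from each array, the subunit medians at the 3 numbers were -0.23, 0.13 and 0.12. The parting of number 1 from 5 and 6 was thus smaller, and kept its direction, with the trend removed.

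**Figure D4:**
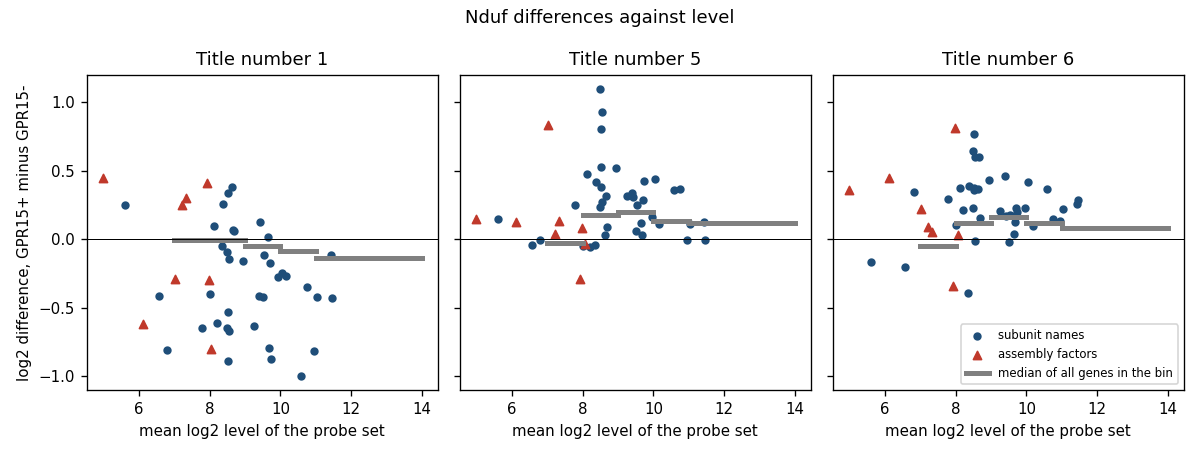
Log2 difference at each title number against the mean log2 level of the probe set, for the 38 subunit names (dots) and 8 assembly factors (triangles); grey bars are the median difference of all genes in that range of level, drawn from 7 upwards. At number 1 most subunits lie below the grey bars, and at numbers 5 and 6 most lie on or above them.

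The assembly factors were described apart. Ndufaf1, which builds the membrane arm with the MCIA complex, read 4.38, 4.99 and 5.08 in samples labelled GPR15- and 4.83, 5.14 and 5.43 in those labelled GPR15+. It lay higher at every number, with a mean of 0.32 ± 0.25 (SE), although the fractions overlapped. Its mean level of 4.98 was the lowest of all members and below the all-gene median level of 6.61. Ndufaf2, a relative of Ndufa12 that holds its place during assembly, read 7.10, 6.64 and 6.97 against 6.81, 7.48 and 7.19 and lay lower at number 1 and higher at both others. Ndufaf3 and Ndufaf4 work as partners on the Q module. Ndufaf3 read 6.61, 7.47 and 7.40 against 6.86, 7.51 and 7.49, and Ndufaf4 read 7.53, 8.29 and 8.05 against 7.94, 8.01 and 7.70. The partners moved alike at number 1 (0.25 and 0.41) and apart at 5 (0.04 and -0.29) and 6 (0.09 and -0.34).

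Ndufaf5, an enzyme that modifies Ndufs7, read 5.61, 6.70 and 6.03 in samples labelled GPR15- and 4.99, 6.82 and 6.47 in those labelled GPR15+. Ndufs7 was also lowest in the GPR15+ sample numbered 1, as 25 of 38 subunits were, so the likeness is not particular to this pair. Ndufaf8, the stabilising partner of Ndufaf5, read 8.16, 8.19 and 8.21 against 7.36, 8.15 and 8.24. The 5 other samples lay within 0.1 of each other, so its difference of -0.27 ± 0.25 (SE), the lowest of all members, rested on that sample. Ndufaf6 read 7.36, 6.89 and 7.48 against 7.67, 7.02 and 7.53 and lay higher at each number, by 0.30, 0.13 and 0.05. Ndufaf7, a methyltransferase, read 6.83, 8.66 and 8.13 against 6.53, 8.75 and 8.94, with both arrays numbered 1 low.

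The median difference of the assembly factors was -0.02, 0.10 and 0.16 at numbers 1, 5 and 6, with 4, 6 and 7 of 8 above 0. Without GPR15- replicate 1 the overall median was -0.21, without GPR15+ replicate 5 it was -0.06, and without GPR15+ replicate 1 it was 0.39. Whether the assembly factors differed from the subunits was not tested, and each median lay inside the range of the other group. Assembly factors without an Nduf name, of which 12 of 13 listed were measured, had a median of 0.06, with 8 above 0 and 0 called. Regulators of mitochondrial biogenesis, 10 of 11 measured, had a median of 0.02, with 5 above 0 and 0 called. No gene of either list had an unadjusted limma p under 0.05, beside 6.23% of all genes.

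Promoters of the members were read from RefSeq (GRCm38.p6), in windows from 250 bases before to 50 after each gene's start. Of 46 members, 41 matched, with 43 windows. The search covered both strands for GCGC followed by any 2 bases and GCGC again, a loose form of the site of NRF1, a known activator of respiratory chain genes, and for AAGATGGC, the core of a YY1 site. The loose NRF1 form stood in 12 of 43 windows (27.9%), against 6.23% of all 32851 windows, which include noncoding genes. AAGATGGC stood in 8 (18.6%, against 2.75%), in each case after the gene's start. CCGGAAGT, an ETS site, stood in 1 (2.33%, against 3.89%), and TATAAA in 5 (11.6%, against 13.6%). The windows with the loose NRF1 form belonged to 11 genes: Ndufa5, Ndufa6, Ndufa8, Ndufa11, Ndufab1, Ndufaf4, Ndufaf5, Ndufb4, Ndufs5, Ndufs6 and Ndufv2. These matches describe letters and say nothing of binding in these cells.

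The 250 bases before the start are printed for the member with the smallest p (Ndufa6), the member with the smallest p without the arrays numbered 1 (Ndufv2), a subunit higher at every number (Ndufab1) and a subunit that parted number 1 from the others (Ndufb4). Capitals mark the loose NRF1 form, whose match in Ndufa6 lies after the start and is not printed. Ndufa6 is chr15:82354292-82354541, Ndufv2 chr17:66101560-66101809, Ndufab1 chr7:122101849-122102098 and Ndufb4 chr16:37654369-37654618, all on the minus strand and written 5′ to 3′ along the gene.
Ndufa6: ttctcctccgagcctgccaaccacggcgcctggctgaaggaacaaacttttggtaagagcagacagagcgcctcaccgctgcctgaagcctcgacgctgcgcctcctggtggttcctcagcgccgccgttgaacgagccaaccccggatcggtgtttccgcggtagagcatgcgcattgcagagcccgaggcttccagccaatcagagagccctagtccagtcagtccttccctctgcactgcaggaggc
Ndufv2: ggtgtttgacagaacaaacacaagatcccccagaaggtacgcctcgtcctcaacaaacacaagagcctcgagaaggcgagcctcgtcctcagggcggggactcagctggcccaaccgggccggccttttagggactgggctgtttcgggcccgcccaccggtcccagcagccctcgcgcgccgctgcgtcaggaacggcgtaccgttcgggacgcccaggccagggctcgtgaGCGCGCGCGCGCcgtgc
Ndufab1: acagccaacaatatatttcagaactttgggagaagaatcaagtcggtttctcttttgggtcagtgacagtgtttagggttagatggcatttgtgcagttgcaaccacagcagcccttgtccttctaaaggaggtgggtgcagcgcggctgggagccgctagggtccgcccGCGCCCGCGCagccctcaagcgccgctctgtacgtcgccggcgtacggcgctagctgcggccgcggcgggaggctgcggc
Ndufb4: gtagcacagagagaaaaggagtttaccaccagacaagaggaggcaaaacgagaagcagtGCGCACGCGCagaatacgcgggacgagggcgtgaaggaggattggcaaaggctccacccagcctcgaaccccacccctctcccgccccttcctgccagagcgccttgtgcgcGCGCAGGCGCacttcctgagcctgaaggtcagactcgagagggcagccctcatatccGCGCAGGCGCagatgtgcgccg
In Ndufv2 a pair of matches overlap close to the start, and Ndufb4 has 3 in its window. The lowest of the 6 arrays was the GPR15+ sample numbered 1 for Ndufv2 and Ndufb4. It was the GPR15- sample numbered 5 for Ndufa6 and the GPR15- sample numbered 1 for Ndufab1. The printed genes were picked partly for unlike patterns across the numbers. They therefore cannot show whether genes with the motif share a lowest array.

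Other nuclear genes of the mitochondrion were set beside complex I, chosen by their symbols. For the other complexes these were Sdha to Sdhd, Cyc1 and symbols starting with Uqcr, Cox4 to Cox8 or Atp5. Other Sdh and Cox symbols were left out. For the mitochondrial ribosome they were symbols starting with Mrpl or Mrps and a digit. The 48 genes of respiratory complexes II to V had a median difference of 0.02, and of -0.25, 0.14 and 0.15 at numbers 1, 5 and 6. The 76 mitochondrial ribosomal proteins had 0.05, and -0.18, 0.25 and 0.21. Below 0 at number 1 and above 0 at both others lay 27 of 48 (56.2%) and 32 of 76 (42.1%). This share was 52.6% of the 38 subunit names, and 52.8% of the 36 complex I subunits, which leave out Ndufa4 and Ndufa4l2. The difference between these groups was not tested, and the pattern is not called particular to complex I.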

How the data were processed

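Values are on a log2 scale as deposited; RMA produced them, per the submitters' processing notes, which give no version, and the array name and annotation build are not given in the sources used here. The precision is limited by the 6 arrays. Of 22142 rows, 19527 had 1 gene symbol, and the highest-mean row of a gene was kept (19494 genes). Genes were fitted with limma 3.58.1 in R 4.3.3 (lmFit, eBayes, no block), adjusted by Benjamini-Hochberg over all genes with a threshold of 0.05; an exact permutation test of 3 against 3 cannot go below p = 0.1. The fit was tested on simulated data before use, with independent noise and no effect of the title number. The changes planted there were larger than any member difference found here, so that check does not cover differences of this size. Equal title numbers were taken to pair samples. Deviations from fraction means correlated at 0.57, 0.38 and 0.32 between samples of equal number. Numbers 5 and 6 also correlated with each other (0.32 and 0.21). These values set number 1 apart and do not settle how samples numbered 5 and 6 pair. In sensitivity runs array weights, a block, rescaling, a filter and left-out arrays were tried. Modules were assigned from general knowledge.

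Members and lists were chosen with earlier results of these data known. Values in every sample were given for the 8 members of smallest p in each direction, the core subunits, all Ndufaf genes, Ndufa4 and Ndufa4l2. Of the marker lists, genes with an unadjusted limma p under 0.05 were Thy1 (0.46), Ikzf2 (-0.52), Vil1 (-0.59), Phgr1 (-0.51), Lyz2 (-0.48) and Mzb1 (-0.59), none passing after adjustment. Of all genes, 6.23% lay under that mark. These genes do not stand for their lists. The median difference was 0.16 for T cell markers (6 above 0, 2 below) and 0.09 for Treg markers (5 and 4). It was -0.23 for epithelial (2 and 12) and -0.16 for macrophage markers (1 and 8). For B and plasma cell markers it was -0.28 (1 and 5), and for fibroblast and endothelial markers -0.11 (1 and 7). Ptprc differed by 0.15 and Cd4 by 0.14.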

Additional observations from a re-analysis of the deposited data

Results flagged for a closer look

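The median difference of the 38 Nduf subunit names lay in opposite directions at the title numbers, at -0.31 for number 1, 0.25 for number 5 and 0.23 for number 6. Each number holds 1 sample of each fraction, so this difference was not tested. The GPR15+ sample numbered 1 and the narrower spread of both arrays numbered 1 moved with it, and their part in it was not tested.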

How the results depend on the processing

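The number of Nduf members called over all genes was 0 in every setting but array weights, where it was 2 (Ndufa6, adjusted p = 0.0426, and Ndufc1, adjusted p = 0.0346), or 4.35% beside 11.2% of all genes. There GPR15+ replicate 6 had a weight of 6.56 against 0.19 to 1.72 for the other 5 arrays, and the weight estimate stopped before reaching its tolerance. Subunits with an unadjusted limma p under 0.05, 0 as reported, numbered 1 with the replicate block (the smallest adjusted p of a member then being 0.377), 1 with each array centred, 1 with trend removal and block together (a setting chosen after seeing the data), 10 with array weights and 6 when both arrays numbered 1 were left out; leaving out 1 array gave 0 to 10. The median of the subunits went from -0.09 to 0.37, and that of the assembly factors from -0.21 to 0.39, with 1 array left out. With array weights these medians were 0.27 and 0.25, against 0.06 and 0.14 as reported. Of 46 members, 11 kept their sign in all 15 settings (in the 40% filter where present), 10 above 0 and Ndufa7 below. The block changed no call.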

Other observations

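The genes named here that serve mitochondrial DNA were chosen after their values were seen. Tfam packs this DNA and helps start its transcription. It read 7.37, 7.63 and 7.60 in samples labelled GPR15- and 6.47, 8.32 and 8.70 in those labelled GPR15+ (numbers 1, 5 and 6). Its partner in transcription Tfb2m read 6.16, 5.69 and 6.38 against 4.83, 7.35 and 7.27. In both, the GPR15+ sample numbered 1 was the lowest and the other GPR15+ samples the highest, as in many subunits. Twnk, the helicase that unwinds mitochondrial DNA, read 5.91, 6.76 and 5.83 against 5.43, 5.68 and 5.56, with no overlap between the fractions, a difference of -0.61 ± 0.26 (SE) and a limma adjusted p of 0.773. Of all genes, 9.17% did not overlap in that direction. Tmem126b, an assembly factor of the membrane arm, read 4.83, 4.80 and 5.20 against 4.87, 6.46 and 5.91, and differed by 0.04, 1.66 and 0.71 at the 3 numbers.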
